A study of Mus musculus with 16 samples.

Results

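Expression of 10 genes of the TNF superfamily and its feedback circuit was followed across mouse bone marrow derived macrophages (BMDMs) grown with either of 2 growth factors, on either of 2 dishes, with or without LPS. They were 10 of the 22287 genes in the deposited table and were taken by their gene symbols. The ligands were Tnf, Tnfsf10, Tnfsf12, Tnfsf13b and Tnfsf15, the receptors Tnfrsf1a, Tnfrsf1b and Fas, the adaptor Traf1 and the feedback enzyme Tnfaip3. All 10 passed the filter on low counts and were among the 12514 genes tested.

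Marrow cells of C57BL/6J mice aged 8 weeks, with no altered allele named, were cultured for 7 days in GM-CSF (GM) or M-CSF (M). The dishes were treated for tissue culture (TC) or left untreated (noTC), and the cells then received vehicle (steady state) or LPS for 3 h. The 4 kinds of culture are named by growth factor and dish, as in GM-noTC, with -LPS added for LPS challenge, and wherever 4 values follow each other they are in the order GM on TC, GM on noTC, M on TC and M on noTC. Each of the 8 groups held 2 biological replicates, or 16 libraries of RNA in all. No source used here says whether the 2 came from separate mice or from pooled marrow, so the p-values measure the spread between these libraries. Seeding density also differed between the growth factors, which cannot be told apart from the growth factor.

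TNF superfamily ligands are mostly membrane proteins that act as trimers, some after being cut from the surface, and they bind receptors of the TNF receptor superfamily. The receptors signal through TRAF adaptors to NF-κB and MAP kinases or, where they carry a death domain, can start apoptosis or necroptosis. In macrophages LPS acts through TLR4, Tnf is among its early targets, and NF-κB in turn drives inhibitors such as A20, the product of Tnfaip3, which limit the signal.

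Total counts per library lay between 17527806 and 31458368, at which 3 counts amount to 0.0954 to 0.171 CPM, a floor that covers counting error only. Levels below are CPM, read counts divided by the library size and edgeR's TMM factor, and a call is a Benjamini-Hochberg adjusted p under 0.05 over all 12514 genes in edgeR's quasi-likelihood test. In bulk RNA, fewer cells of a type and less RNA per cell cannot be told apart. The 9 macrophage markers (Adgre1, Csf1r, Cd68 and others) summed to between 20700 and 48020 CPM, and all were above 3 counts in every group. The 5 LPS target genes used to check the labels summed to 8.38 to 74.7 CPM at steady state and to 14290 to 16370 CPM upon LPS challenge. A list of 6 dendritic cell markers summed to 46.0 to 84.9 CPM in the GM groups and to 0.838 to 4.39 CPM in the M groups. For 7 neutrophil markers the ranges were 10.3 to 39.1 CPM and 0.299 to 2.002 CPM. The 10 heart muscle markers summed to 24.2 to 64.8 CPM in the TC steady state libraries and to at most 0.814 CPM in all others. The summed level of 6 stromal markers went from 1.35 to 5.96 CPM at steady state to 22.6 to 49.0 CPM upon LPS challenge, of which Pdgfrb alone held 20.3 to 41.2 CPM. Summed T and NK, B, and mast and basophil markers stayed at or below 6.20 CPM. The part of these other markers in the results below was not tested.

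At steady state the ligand transcripts were mostly those of Tnfsf12 (TWEAK) and Tnf, and upon LPS challenge they were mostly those of Tnf, joined by Tnfsf15 (TL1A) in GM cells. Of the summed CPM per kilobase of the 5 ligands, Tnfsf12 held 82.6% (TC) and 59.4% (noTC) in GM cells, and 57.8% and 40.4% in M cells. Tnf held 15.0%, 34.6%, 36.2% and 53.4% in the same order. These shares are as deposited. With the subtraction described with the dishes below, the log2 fold change of Tnf, noTC against TC, was 0.27 in GM cells, not 1.66. In M cells that of Tnf was 0.48, not 0.92. Those of Tnfsf12 were then -0.013 in GM and -0.161 in M cells. The steady state shares on noTC dishes thus depend on the subtraction, and shares after it were not computed. Upon LPS challenge Tnf held 68.3% in GM-TC-LPS and 67.5% in GM-noTC-LPS, where Tnfsf15 held 30.4% and 31.2%. In M cells with LPS, Tnf held 95.0% (TC) and 93.3% (noTC), and Tnfsf15 held 2.44% and 3.46%. The Tnfsf12 share carries an uncertainty, since its exons share 731 bases on the same strand with the readthrough gene Tnfsfm13, to which 7861 counts were assigned over all libraries.

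**Figure D1:**
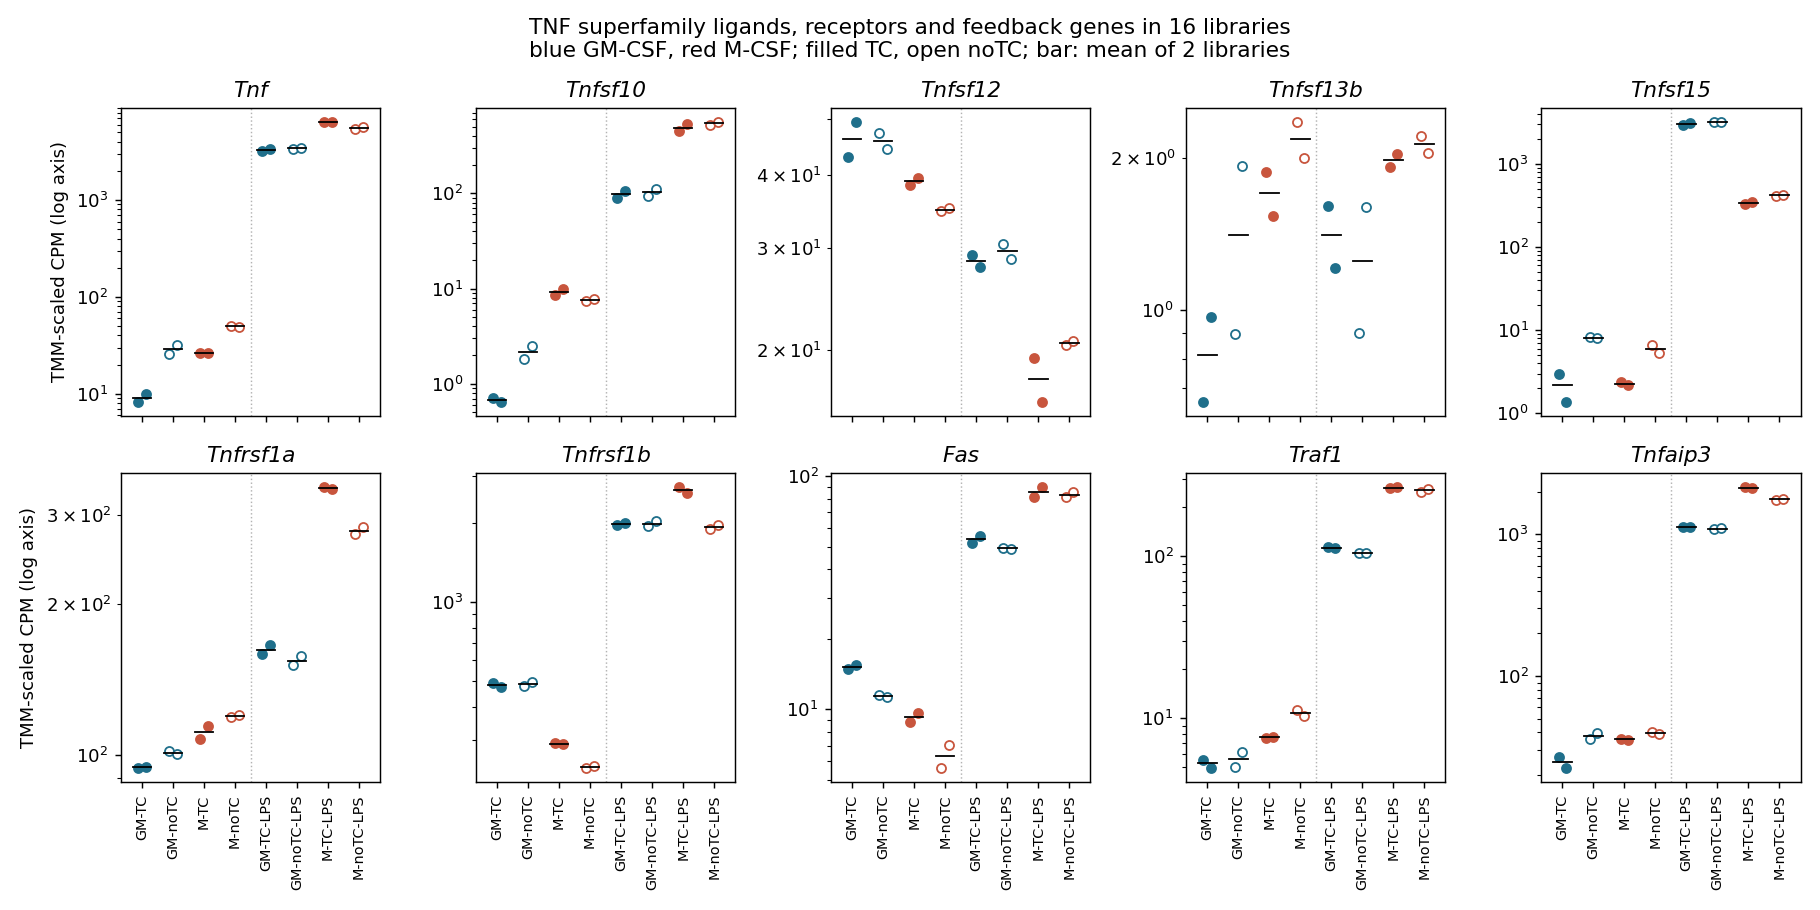
TMM-scaled CPM of the 10 genes in each of the 16 libraries, on log axes that differ between panels, with blue points for GM-CSF, red for M-CSF, filled for TC and open for noTC dishes, and a bar at the mean of the 2 libraries. Left of the dotted line are the steady state groups and right of it the LPS groups; 8 genes lie higher on the right in every group, Tnfsf12 lies lower (16.3 to 30.5 against 34.7 to 49.5 CPM), and the groups of Tnfsf13b overlap between 0.656 and 2.36 CPM.

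The sequences before the transcription starts are shown for 4 genes on which the results turn: Tnf and Tnfsf15, the ligands with the highest CPM per kilobase upon LPS challenge, and Tnfaip3 and Tnfrsf1b, whose windows held a match to a motif searched for. They are 250 bases each, from the RefSeq promoters of GRCm38.p6, in which 9 of the 10 genes had an entry, with 11 start sites in all. Tnfsf12 was not matched. Capitals mark matches on either strand to the NF-κB consensus, found in 7.25% of the 32851 promoters of the same window, or to the core of the interferon-stimulated response element (TTTC, any 2 bases, TTTC), found in 2.98%.
Tnf (chr17:35202008-35202257, minus strand): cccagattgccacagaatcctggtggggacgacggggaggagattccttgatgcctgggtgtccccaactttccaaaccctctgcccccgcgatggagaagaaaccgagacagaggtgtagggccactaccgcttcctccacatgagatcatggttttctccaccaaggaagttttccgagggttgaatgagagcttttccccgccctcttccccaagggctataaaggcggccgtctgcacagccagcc
Tnfsf15 (chr4:63745060-63745309, minus strand): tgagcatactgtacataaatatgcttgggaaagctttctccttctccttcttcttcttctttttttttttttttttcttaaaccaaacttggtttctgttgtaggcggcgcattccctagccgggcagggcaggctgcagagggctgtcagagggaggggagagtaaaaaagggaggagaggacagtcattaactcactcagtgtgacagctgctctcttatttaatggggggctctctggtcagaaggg
Tnfaip3 (chr10:19015411-19015660, minus strand): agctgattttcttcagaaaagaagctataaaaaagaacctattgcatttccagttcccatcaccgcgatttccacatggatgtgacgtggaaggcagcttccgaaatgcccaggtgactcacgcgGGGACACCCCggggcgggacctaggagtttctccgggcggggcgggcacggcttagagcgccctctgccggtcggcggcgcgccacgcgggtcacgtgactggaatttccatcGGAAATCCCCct
Tnfrsf1b (chr4:145246871-145247120, minus strand): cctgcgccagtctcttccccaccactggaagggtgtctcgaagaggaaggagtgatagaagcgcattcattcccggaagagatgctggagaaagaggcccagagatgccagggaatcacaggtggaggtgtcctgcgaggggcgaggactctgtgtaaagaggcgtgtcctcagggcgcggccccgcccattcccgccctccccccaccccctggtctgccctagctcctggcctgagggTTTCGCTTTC
Of the 9 genes, Tnfaip3 held NF-κB matches, at 125 to 116 bases before its first start (on both strands) and at 12 to 3 bases before it (on the minus strand relative to the gene). The interferon element matched Tnfrsf1b at 10 to 1 bases before its start and Tnfsf13b at 16 to 7 bases before its second start. These are matches of letters in a short window, not binding sites, and for the other genes they say only that the letters were not in this window.

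LPS raised 8 of the 10 genes in each of the 4 kinds of culture and lowered Tnfsf12 in each. Tnfsf13b was not called in any of the 4. Among all genes tested the shares called higher and lower were 32.8% and 34.2% for GM cells on TC dishes and 33.6% and 34.0% on noTC dishes, and 37.6% and 36.4% for M cells on TC dishes and 36.4% and 35.9% on noTC dishes. The median log2 fold changes of the 10 genes were 3.24, 3.16, 4.16 and 4.13 in these cultures, beside medians of all genes between -0.051 and -0.006. With scaling by library size alone the median of all genes was -0.530, -0.542, -0.834 and -0.729, and the call of Tnfrsf1a in GM-noTC was then lost (log2 fold change 0.10, adjusted p = 0.0748). With that scaling Tnfsf13b was called lower in M-noTC (-0.75, adjusted p = 0.025).

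Tnf, the trimeric cytokine that binds both TNF receptors, was the highest of the 10 genes per kilobase in all 4 LPS groups. It rose from 8.23 and 9.91 CPM in GM-TC to 3202 and 3357 CPM in GM-TC-LPS, and from 25.8 and 32.0 CPM in GM-noTC to 3331 and 3482 CPM in GM-noTC-LPS. In M cells it rose from 26.7 and 26.2 CPM (M-TC) to 6405 and 6456 CPM (M-TC-LPS), and from 50.7 and 49.1 CPM (M-noTC) to 5373 and 5706 CPM (M-noTC-LPS). Every LPS library stood far above every steady state library. The log2 fold changes were 8.49 (SE 0.0932), 6.88 (SE 0.0827), 7.93 (SE 0.0863) and 6.79 (SE 0.0806), all with adjusted p at or below 9.11e-25. Ordered by mean, Tnf ran from M-TC-LPS over M-noTC-LPS to the 2 GM LPS groups, whose libraries overlapped, and at steady state M-noTC came first, GM-noTC and M-TC overlapped, and GM-TC came last.

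Tnfsf15, the ligand of death receptor 3 and a costimulator of T cells, had the largest rise of the 10 genes in GM cells. Its libraries held 2.98 and 1.37 CPM in GM-TC and 2895 and 3060 CPM upon LPS challenge, for a log2 fold change of 10.5 (SE 0.128, adjusted p = 8.34e-25). In GM-noTC it went from 8.24 and 8.06 CPM to 3224 and 3208 CPM, a log2 fold change of 8.62 (SE 0.109). The rise was smaller in M cells, from 2.35 and 2.21 CPM to 326 and 348 CPM on TC dishes and from 6.64 and 5.27 CPM to 416 and 422 CPM on noTC dishes, with log2 fold changes of 7.21 (SE 0.122) and 6.16 (SE 0.104). The lowest GM LPS library thus lay above the highest M LPS library, and none of the LPS groups overlapped another. With the subtraction described with the dishes below, the log2 fold changes on noTC dishes were 11.1 in GM and 8.73 in M cells, and those of Tnf were 8.27 and 7.24.

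Tnfsf10 (TRAIL), which binds death receptors and is known as an interferon-inducible ligand, showed the opposite order of growth factors in its levels upon LPS challenge. It rose from 0.707 and 0.644 CPM to 90.02 and 107 CPM in GM cells on TC dishes and from 1.83 and 2.51 CPM to 94.4 and 111 CPM on noTC dishes. In M-TC it rose from 8.50 and 9.95 CPM to 450 and 532 CPM, and in M-noTC from 7.48 and 7.69 CPM to 524 and 567 CPM. All M LPS libraries were above all GM LPS libraries, while the dishes overlapped within each growth factor upon LPS challenge. The log2 fold changes were 7.18, 5.55, 5.73 and 6.17 (SE 0.182, 0.144, 0.114 and 0.114).

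Tnfsf12, a ligand whose receptor Fn14 is encoded by Tnfrsf12a, fell. GM libraries held 42.9 and 49.5 CPM (TC) and 47.2 and 44.3 CPM (noTC) at steady state, and 29.2 and 27.8 CPM (TC) and 30.5 and 28.7 CPM (noTC) upon LPS challenge. M libraries went from 38.5 and 39.5 CPM (TC) and 34.7 and 35.1 CPM (noTC) to 19.4 and 16.3 CPM and 20.4 and 20.7 CPM. The 2 sets of libraries did not overlap, and the log2 fold changes were -0.70, -0.63, -1.12 and -0.76 (adjusted p at most 3.39e-07). Tnfsf13b (BAFF), the survival factor of B cells, had 0.656 to 2.36 CPM at steady state and 0.900 to 2.21 CPM upon LPS challenge. These ranges overlap and rest on 13 to 86 counts per library.

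Both TNF receptors and Fas rose, each more in M than in GM cells. Tnfrsf1a, the death domain receptor that most cells carry, went from 94.4 and 94.5 CPM to 159 and 165 CPM in GM cells on TC dishes, and from 102 and 100 CPM to 151 and 157 CPM on noTC dishes. In M-TC it went from 108 and 114 CPM to 341 and 338 CPM, and in M-noTC from 119 and 120 CPM to 276 and 284 CPM. None of its 8 groups overlapped a neighbour in the order of means, and the log2 fold changes were 0.78, 0.61, 1.61 and 1.22. Tnfrsf1b, the receptor without a death domain that is mostly found on immune and endothelial cells, went from 492 and 475 CPM to 1959 and 2005 CPM in GM cells on TC dishes and from 481 and 498 CPM to 1944 and 2032 CPM on noTC dishes. The M-TC libraries rose from 291 and 289 CPM to 2731 and 2592 CPM, and the M-noTC libraries from 235 and 238 CPM to 1890 and 1959 CPM. Thus GM cells started above M cells and ended level with or below them, with log2 fold changes of 2.04, 2.02, 3.20 and 3.02 (SE 0.0475 to 0.0498).

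Fas, the death receptor of Fas ligand, had 15.0 and 15.5 CPM in GM-TC and 52.0 and 55.5 CPM in GM-TC-LPS. In GM-noTC it had 11.5 and 11.3 CPM before and 49.3 and 48.9 CPM after LPS. M-TC libraries held 8.81 and 9.65 CPM before and 81.3 and 89.8 CPM after, and M-noTC libraries 5.63 and 7.01 CPM before and 81.4 and 85.7 CPM after. The order of the growth factors was therefore exchanged, with every GM library above every M library before LPS and below every M library after it. The log2 fold changes were 1.82, 2.10, 3.21 and 3.70 (SE 0.0839 to 0.0866).

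Traf1, an adaptor without a RING domain that binds TRAF2 and is itself an NF-κB target, rose with log2 fold changes of 4.43, 4.22, 5.12 and 4.56. Its steady state libraries lay between 4.95 and 11.2 CPM, its GM LPS libraries between 104 and 114 CPM and its M LPS libraries between 250 and 266 CPM. Tnfaip3, the ubiquitin-editing inhibitor of NF-κB, rose with log2 fold changes of 5.51, 4.86, 5.89 and 5.47 in the same order. It had 22.6 to 40.3 CPM at steady state, 1082 to 1133 CPM in the GM LPS libraries and 1756 to 2145 CPM in the M LPS libraries. For both genes the 3 ranges were apart.

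**Figure D2:**
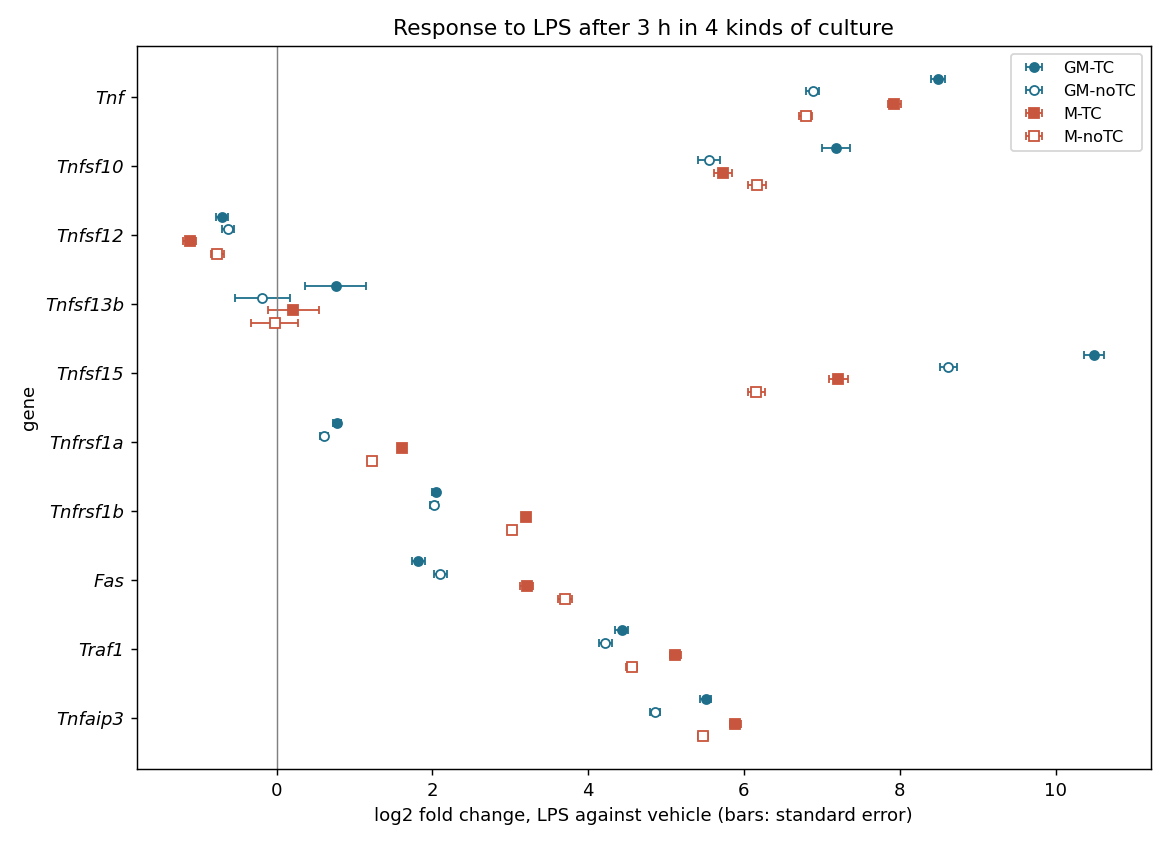
Log2 fold change of each gene, LPS against vehicle, in the 4 kinds of culture, from edgeR's fit over 16 libraries, with bars for the standard error. Tnfsf15 in GM-TC is farthest right at 10.5, Tnfsf12 lies left of 0 in all 4 cultures (-1.12 to -0.63), and the receptors and Fas lie farther right in M cells than in GM cells.

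The difference between the growth factors in the response to LPS was tested as an interaction. On TC dishes 9 of the 10 genes were called and on noTC dishes 7, beside 41.1% and 36.2% of all genes. The rise of Tnfsf15 was greater in GM cells, by 3.27 on TC dishes (SE 0.258, adjusted p = 9.59e-10) and by 2.47 on noTC dishes (SE 0.155). For Fas, Tnfrsf1b and Tnfrsf1a the GM minus M differences on the log2 scale were -1.39, -1.16 and -0.84 on TC dishes and -1.60, -1.0 and -0.62 on noTC dishes, so that these receptors rose more in M cells. Those of Traf1 and Tnfaip3 were -0.69 and -0.38 on TC dishes and -0.34 and -0.62 on noTC dishes. Scaled by library size alone, Tnfaip3 was not called on TC dishes (-0.033, adjusted p = 0.794) and Traf1 was not called on noTC dishes (-0.126, adjusted p = 0.417). Traf1 on noTC dishes also missed the threshold without GM-noTC replicate 2 (-0.163), M-noTC replicate 2 (-0.269) or M-noTC-LPS replicate 2 (-0.319), and after the subtraction described with the dishes (-0.217).

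GM cells were then compared with M cells in the same state. On TC dishes at steady state 3 genes were higher and 6 lower in GM cells (32.6% and 28.9% of all genes), and on noTC dishes 4 and 4 (31.4% and 30.7%). Upon LPS challenge 2 were higher and 7 lower on TC dishes (33.9% and 32.9% of all genes), and 2 and 6 on noTC dishes (33.5% and 32.6%). With library-size scaling the median of all genes at steady state was -0.290 on TC dishes, beside 0.018 with TMM, and -0.289 on noTC dishes, beside 0. These comparisons share libraries with those of LPS, so their values are given beside them and not as separate support. The summed dendritic cell and neutrophil markers given above were higher in every GM library than in every M library. So were the macrophage markers (at least 38070 CPM in GM and at most 30760 CPM in M libraries). The mast and basophil markers were as well (at least 3.03 CPM and at most 0.197 CPM).

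At steady state Tnfrsf1b was higher in GM cells by log2 fold changes of 0.74 on TC and 1.05 on noTC dishes, and Fas by 0.72 and 0.83. Tnf and Tnfsf10 were lower in GM cells, Tnf by log2 fold changes of -1.53 and -0.79, and Tnfsf10 by -3.77 and -1.79. Traf1 (-0.54 and -0.94) and Tnfrsf1a (-0.23 and -0.24) were lower on both dishes, and Tnfaip3 was lower on TC dishes (-0.54), where its libraries held 26.9 and 22.6 CPM in GM-TC and 36.2 and 35.2 CPM in M-TC. Some of the smaller differences depended on 1 library or on the scaling. Tnfsf12 was called higher in GM-TC (0.25), but not without GM-TC replicate 2 (0.137) or M-TC replicate 1 (0.213) nor with DESeq2 (0.200), and it was -0.067 when scaled by library size. On noTC dishes Tnfsf12 was 0.39 and likewise not called with that scaling (0.10). Tnfsf13b was called lower in GM-TC (-1.04), but not without GM-TC replicate 1 (-0.829) or M-TC replicate 1 (-0.907). Tnfsf15 was called higher in GM-noTC than in M-noTC (0.47), but not without M-noTC replicate 2 (0.282) nor when scaled by library size (0.183). The subtraction described with the dishes below also ended that call (0.603, adjusted p = 0.212). After it, Tnf and Tnfsf10 on noTC dishes were at -1.74 and -2.78, both still called. Tnfaip3 and Tnfsf13b, not called on noTC dishes, were called lower in GM-noTC with that scaling (-0.363, adjusted p = 5.08e-05, and -0.891, adjusted p = 0.0128).

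Upon LPS challenge Tnfsf15 was the most different of the 10 genes, higher in GM cells by log2 fold changes of 3.14 (SE 0.079) on TC and 2.94 (SE 0.0781) on noTC dishes, or 8.83-fold and 7.67-fold. Tnfsf12 was also higher, by 0.67 and 0.53. Tnfsf10 was lower in GM cells by log2 fold changes of -2.32 and -2.41, and Traf1 by -1.23 and -1.28. Tnf (-0.97 and -0.70), Tnfrsf1a (-1.07 and -0.86), Tnfaip3 (-0.91 and -0.69) and Fas (-0.67 and -0.77) were lower on both dishes as well. Tnfrsf1b was lower on TC dishes (-0.43, adjusted p = 3.37e-08) and was not called on noTC dishes, where the libraries overlapped at 1944 and 2032 CPM in GM cells and 1890 and 1959 CPM in M cells.

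**Figure D3:**
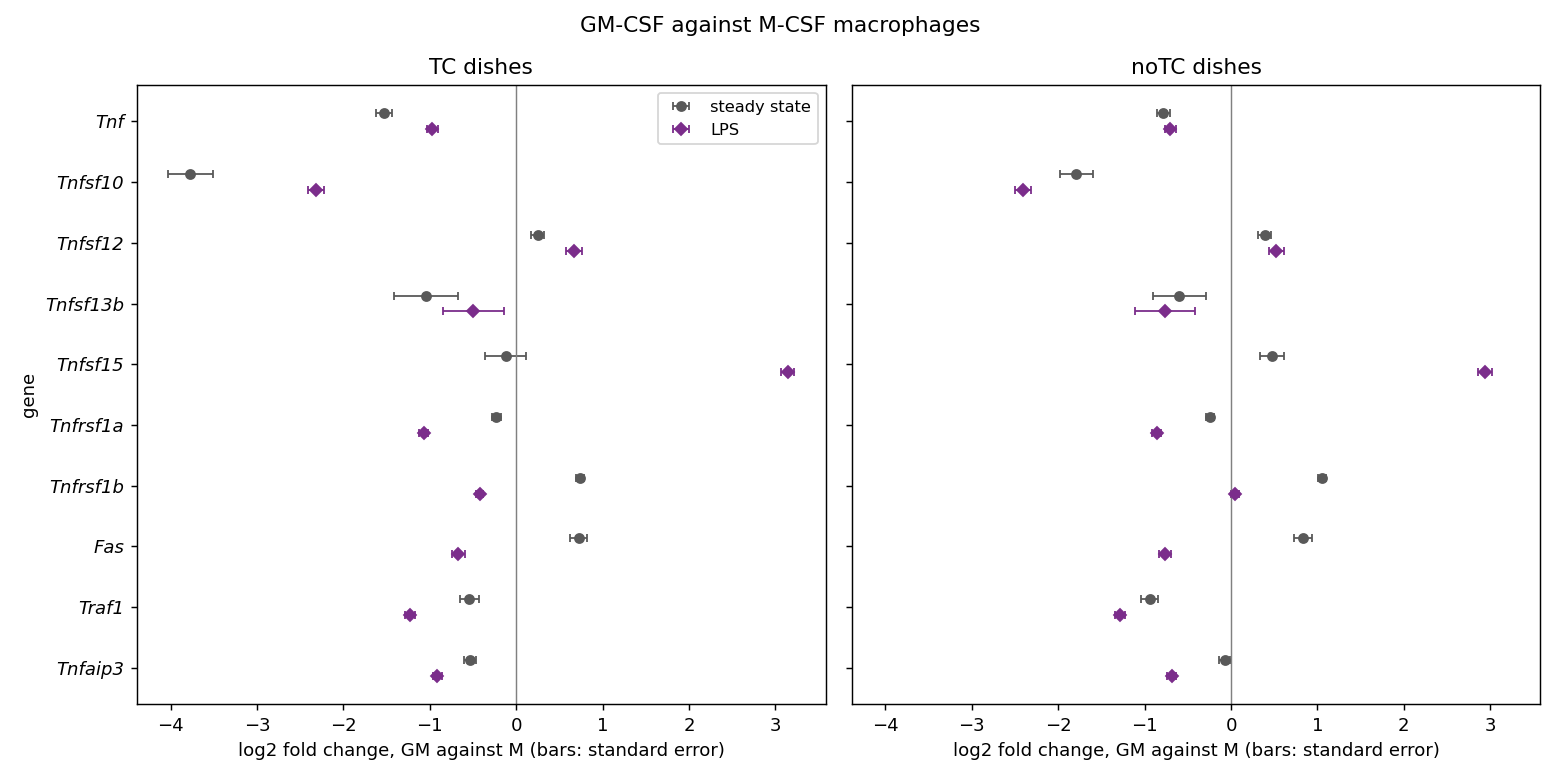
Log2 fold change of each gene, GM against M, on TC (left) and noTC dishes (right), with circles for steady state, diamonds for LPS and bars for the standard error. Fas lies right of 0 at steady state (0.72 and 0.83) and left of it upon LPS challenge (-0.67 and -0.77), and Tnfsf15 moves from near 0 to 3.14 and 2.94.

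Dishes were compared within each growth factor. In GM cells at steady state 4 of the 10 genes were higher on noTC dishes and 1 was lower, beside 4.69% and 2.85% of all genes. Tnf, Tnfsf15 and Tnfsf10 rose with log2 fold changes of 1.66 (SE 0.0964), 1.96 (SE 0.184) and 1.70 (SE 0.355), and Tnfaip3 rose by 0.62 (SE 0.0704). Fas was lower by -0.42 (SE 0.0978). In M cells 3 were higher (16.1% of all genes) and 2 lower (11.1%) on noTC dishes. Tnf, Tnfsf15 and Traf1 rose with log2 fold changes of 0.92, 1.36 and 0.50, while Fas (-0.53) and Tnfrsf1b (-0.30) were lower. The library values of these genes are those given with the LPS results, and the GM-noTC libraries did not overlap the GM-TC libraries for the 5 genes called in GM cells. These genes were picked by a test on the same libraries, so the lack of overlap is no separate support. The share of all genes that were apart in this way was not computed. Without GM-TC replicate 2 or GM-noTC replicate 2 the count in GM cells was 3. Leaving out a library ended 2 calls there, that of Tnfsf10 without GM-TC replicate 2 (1.62) or GM-noTC replicate 2 (1.44), and that of Fas without GM-TC replicate 2 (-0.388), GM-noTC replicate 1 (-0.429) or GM-noTC replicate 2 (-0.409).

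The steady state rises on noTC dishes were small beside the levels of the same genes upon LPS challenge. In CPM scaled by library size, the excess of GM-noTC over GM-TC was 0.744% for Tnf, as a percentage of the mean of the 10 libraries other than GM-noTC and the 2 TC steady state groups. It was 0.838% for Tnfsf10, 0.606% for Tnfsf15 and 1.496% for Tnfaip3. In M cells the corresponding excess was 1.07% for Tnf, 0.454% for Tnfsf15, 0.528% for Tnfaip3 and 3.59% for Traf1. Genes outside the TNF lists that were under 1 CPM on TC dishes and at 100 CPM or more in those 10 libraries had a median excess of 0.675% in GM cells (13 genes, 0.390% to 0.907%) and 0.600% in M cells (21 genes, 0.0084% to 1.70%). This median excess was itself measured in the noTC libraries, so taking it off also removes a true rise of that size. The source of the excess was not tested. After the median share of the 10 libraries had been taken off all genes in the steady state noTC libraries, 2 of the 10 genes were called in GM cells, Tnfaip3 (0.38, adjusted p = 0.00214) and Fas (-0.44, adjusted p = 0.00732). The share of all genes called after the subtraction was not computed, so counts after it cannot be weighed against all genes. Tnf was then at 0.27 (adjusted p = 0.381), Tnfsf10 at 0.53 (adjusted p = 0.572) and Tnfsf15 at -0.475 (adjusted p = 0.551). In M cells Tnf (0.48), Traf1 (0.43), Fas (-0.57) and Tnfrsf1b (-0.33) were called after the subtraction as before. Tnfsf15 was called in the other direction (-1.20, adjusted p = 0.0204), but its own excess (0.454%) was below the share taken off (0.600%). Tnfsf10, not called as deposited, was then called lower in M-noTC (-0.454, adjusted p = 0.0318). The summed heart muscle markers given above were high on the TC side of both comparisons.

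In GM cells upon LPS challenge, 0 of the 10 genes were called by edgeR, beside 2.80% of all genes in either direction (2.08% higher and 0.727% lower), and 0 had an unadjusted p under 0.05, the lowest being 0.0674 for Traf1. DESeq2 called 0 and gave an unadjusted p under 0.05 for 1. In M cells 1 gene was higher (10.4% of all genes) and 4 were lower (12.9%) in M-noTC-LPS. Tnfsf15 was the higher one (0.31, SE 0.0744), and its call was lost without M-TC-LPS replicate 1 (0.269, adjusted p = 0.0587). Tnfrsf1b (-0.47), Tnfrsf1a (-0.28) and Tnfaip3 (-0.27) were lower, with adjusted p of at most 8.62e-04. Tnf was lower (-0.215, adjusted p = 0.0137), a call lost without M-TC-LPS replicate 1 (-0.219), M-TC-LPS replicate 2 (-0.208) or M-noTC-LPS replicate 1 (-0.171), and with library-size scaling (-0.128, adjusted p = 0.123). With that scaling Tnfsf10 (0.242, adjusted p = 0.0329) and Tnfsf12 (0.286, adjusted p = 0.0322) were also called higher, so the balance of directions in M cells depended on the scaling. The response to LPS itself differed between dishes for 4 of the 10 genes in GM cells (0.783% of all genes) and for 6 in M cells (10.6% of all genes), and for 0 in GM cells after the subtraction. At steady state the dish difference differed between the growth factors for 4 genes (11.2% of all genes). The dish difference upon LPS challenge differed between the growth factors for 1 gene, Tnfrsf1b (0.47, adjusted p = 3.25e-05, with 10.6% of all genes called).

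**Figure D4:**
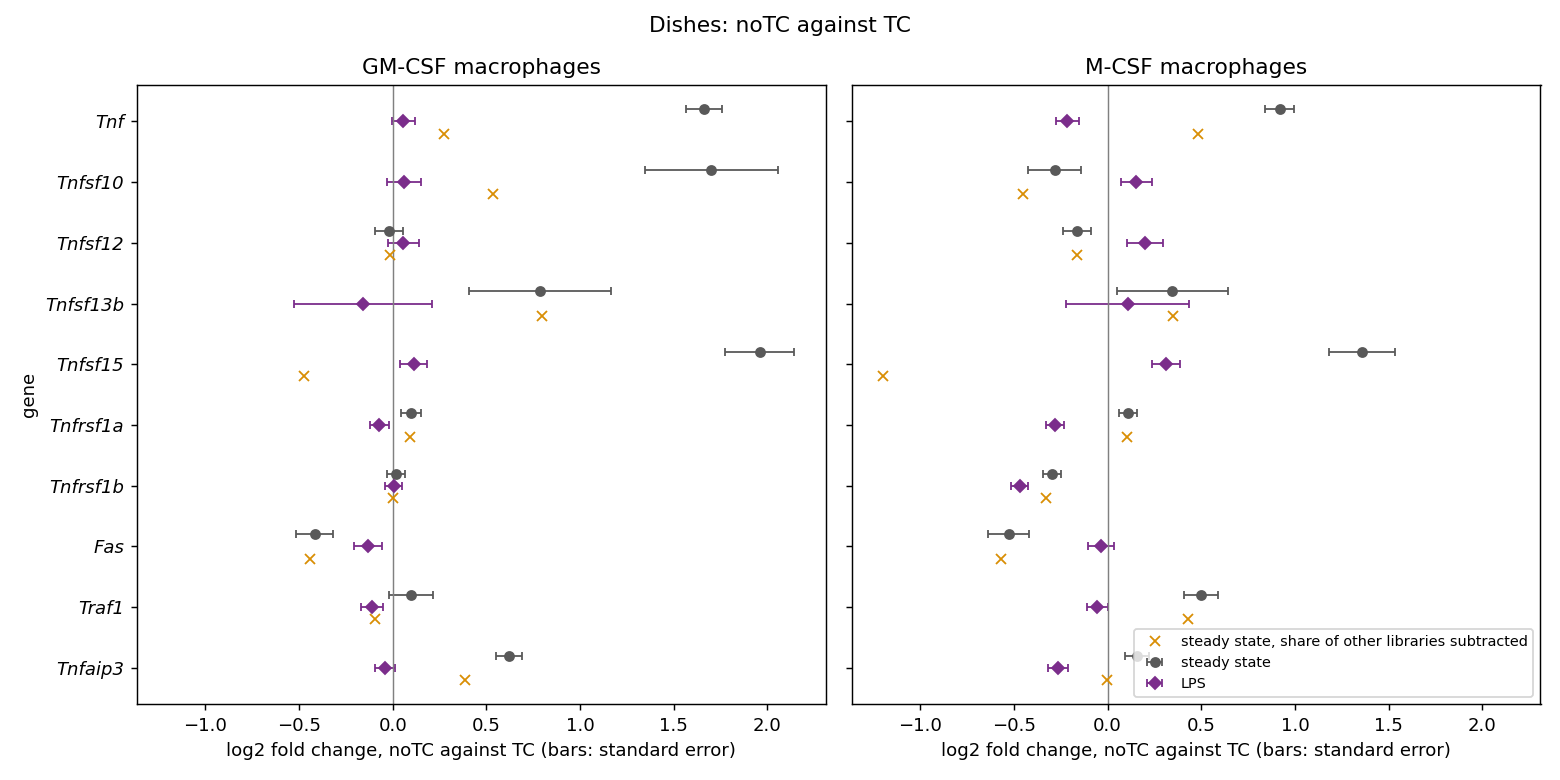
Log2 fold change of each gene, noTC against TC, in GM (left) and M cells (right), with circles for steady state, diamonds for LPS, bars for the standard error, and crosses for the steady state value after the share of other libraries was subtracted. Tnf, Tnfsf10 and Tnfsf15 in GM cells lie at 1.66 to 1.96 as deposited and at -0.475 to 0.53 after subtraction, and all 10 diamonds of GM cells lie near 0.

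The wider pathway was described with 74 other genes in 4 lists, of which 63 were tested. LPS raised 37 and lowered 15 of the 63 in GM cells on TC dishes (39 and 12 on noTC dishes) and raised 37 and lowered 14 in M cells on TC dishes (39 and 16 on noTC dishes), with median log2 fold changes between 0.54 and 0.79. Those raised were 58.7% to 61.9% of the 63 and those lowered 19.0% to 25.4%, beside the shares of all genes given above. Of 13 feedback and shedding genes 10 or 11 rose in each culture. Of 18 receptors tested 6 or 7 rose (33.3% to 38.9%) and 6 to 9 fell, beside 32.8% to 37.6% of all genes higher and 34.0% to 36.4% lower. Differences between the lists were not tested.

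Among the ligands, Lta (lymphotoxin alpha), the neighbour of Tnf in the genome, had at most 0.185 CPM at steady state and rose to 12.8 to 16.4 CPM in GM LPS libraries and to 0.814 to 1.15 CPM in M LPS libraries. Tnfsf4 (OX40 ligand) rose from 3.26 to 4.88 CPM to 162 to 192 CPM in GM cells and from 0.120 to 0.599 CPM to 10.9 to 25.3 CPM in M cells. Tnfsf14 (LIGHT) fell in all 4 cultures, to at most 0.995 CPM. GM cells thus held more Lta and Tnfsf4 upon LPS challenge, with log2 fold changes against M cells of 3.95 and 3.84 for Lta and 3.77 and 2.95 for Tnfsf4 (TC and noTC dishes).

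Among the receptors, Cd40, the costimulatory receptor of antigen-presenting cells, rose by 8.40, 6.79, 6.75 and 6.66 on the log2 scale, to 254 to 283 CPM in GM and 583 to 743 CPM in M cells. Tnfrsf9 (4-1BB) had 3.23 to 7.76 CPM in GM cells and at most 0.135 CPM in M cells at steady state, and 6.46 to 14.9 CPM and 0.499 to 1.38 CPM upon LPS challenge. Relt fell, from 20.7 to 22.2 CPM to 1.44 to 2.24 CPM in GM cells and from 1.68 to 1.89 CPM to 0.308 to 0.523 CPM in M cells. Tnfrsf21 (death receptor 6) fell with log2 fold changes of -1.33, -1.26, -1.23 and -1.29. Tnfrsf11b (osteoprotegerin, a decoy for RANK ligand) was at 11.2 to 13.3 CPM in GM LPS libraries and at most 0.174 CPM in M LPS libraries, and Eda2r was at 3.62 to 17.0 CPM in GM cells and 0.112 to 1.13 CPM in M cells.

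Among the intracellular genes, Cflar, which encodes the caspase-8 inhibitor c-FLIP, rose by 3.58, 3.45, 3.88 and 3.74 on the log2 scale, and Birc3 (cIAP2, a ubiquitin ligase of the receptor complex) by 2.32, 2.42, 3.09 and 3.25. Tab1, a partner of the kinase TAK1, fell by -0.44, -0.69, -1.92 and -1.73. Map3k14 (NIK, the kinase of the alternative NF-κB pathway) rose in GM cells (0.49 and 0.84) and fell in M cells (-2.39 and -1.81). Of the feedback genes, Tnip1, whose product binds A20, rose by 2.47, 2.66, 2.57 and 2.48. Zfp36 (tristetraprolin), which promotes the decay of Tnf mRNA, rose to 116 to 122 CPM in GM cells and to 620 to 822 CPM in M cells, with log2 fold changes of 1.45 and 1.11 against 4.04 and 3.31.

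The dish values that follow are as deposited. For single genes of the 4 lists they are not given after the subtraction, which lowered several steady state rises of the 10 genes. Between dishes at steady state, 6 of the 63 genes were higher on noTC dishes in GM cells (9.52%, beside 4.69% of all genes), among them Cd40 (1.53), Tnfrsf9 (0.94) and Tnfsf9 (0.59), the ligand of 4-1BB. That count was 11 without GM-TC replicate 1 and 3 without GM-noTC replicate 2. In M cells at steady state 8 were higher and 6 lower on noTC dishes (12.7% and 9.52%, below the 16.1% and 11.1% of all genes), with Tnfrsf8 (CD30, 1.56) and Tnfsf9 (0.79) higher and Rhbdf1 (iRhom1, -1.14) lower, and 9 were called in all without M-noTC replicate 1. Upon LPS challenge 3 were higher in GM cells, Map3k14 (0.58), Tnfsf8 (CD30 ligand, 0.35) and Tnfsf9 (0.35), against 1 without GM-TC-LPS replicate 1. The 3 genes were 4.76% of the 63, beside 2.08% of all genes. In M cells 5 were higher and 13 lower (7.94% and 20.6%, beside 10.4% and 12.9% of all genes), with Eda2r (1.83) and Tnfsf4 (1.02) higher and Rhbdf1 (-1.38) lower. Counts for GM against M were 28 higher and 17 lower on TC dishes at steady state, 27 and 17 on noTC dishes, and 33 and 24 (TC) and 29 and 22 (noTC) upon LPS challenge. Those higher were 42.9% to 52.4% of the 63, beside 31.4% to 33.9% of all genes. At steady state those lower were a smaller share than the 28.9% (TC) and 30.7% (noTC) of all genes. Upon LPS challenge they were 38.1% (TC) and 34.9% (noTC), beside 32.9% and 32.6% of all genes. Ltb (lymphotoxin beta) was at 0.739 to 3.51 CPM in GM and at most 0.399 CPM in M libraries, and Tnfrsf13c (BAFF receptor) at 0.155 to 0.998 CPM in GM and at most 0.200 CPM in M libraries, where the M values of both lie near or under the counting floor.

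Genes with the most similar pattern were found by Pearson's r of log2 CPM over the 16 libraries, which share the step between steady state and LPS, so that the values are a description only. Nearest to Tnf were Cxcl2, a neutrophil chemokine (r = 0.997), Ifi205 and Mx1. Tnfaip3 was nearest to Acod1, the enzyme that makes itaconate (r = 0.999), Ehd1 and Nrp2, and Traf1 to Daxx (r = 0.998), Gm49342 and Tap1. Tnfsf10 was nearest to Iigp1, an interferon-inducible GTPase (r = 0.998), Tagap and Mov10, and Tnfsf15 to Jarid2 (r = 0.993), Nfkbid and Zc3h12a. For the receptors the first were Gramd1a for Tnfrsf1a, Slc39a1 for Tnfrsf1b and Slamf7 for Fas (r = 0.994, 0.996 and 0.994). Tnfsf12 was nearest to Dedd2 (r = 0.987), and Tnfsf13b to Btbd11 (r = 0.866). Of 12504 genes compared, between 154 (Tnfsf15) and 865 (Traf1) had an r above 0.95 with each member other than Tnfsf13b, which had 0.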

How the data were processed

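RNA of 16 libraries from mouse BMDMs was sequenced after poly(A) selection. The authors cleaned reads with fastp 0.18.0, removed ribosomal RNA with Bowtie2 2.2.8, aligned with HISAT2, assembled with StringTie 1.3.1 and quantified genes with RSEM, per the study's methods and the submitters' processing notes. The genome build and annotation are not given in the sources used here. The deposited table holds RSEM expected counts, without normalization, for 22287 genes. In each library 6.56% to 8.19% of genes carried fractional values, which were rounded for the tests. RSEM divides reads that fit several transcripts, so overlapping genes such as Tnfsf12 are less certain.

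Groups were taken from the sample labels. Genes were filtered with edgeR's filterByExpr by group (12514 of 16756 detected genes), and TMM factors scaled them (1.109 to 1.392 at steady state, 0.7776 to 0.8415 with LPS). A quasi-likelihood fit of edgeR 4.0.16 in R 4.3.3 over all 16 libraries gave every comparison and interaction, with Benjamini-Hochberg adjustment over all genes tested. The standard error is the absolute log2 fold change over the square root of F. The fit was also run on simulated counts in which only some genes changed, in a single group. That setting is unlike the LPS comparisons, where many genes were called. CPM per kilobase used exon lengths from the reference annotation. Total counts of 17527806 to 31458368 set the precision.

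Named genes were the 10 members and, from each of 4 other TNF pathway lists, the 2 with the largest rise and the 2 with the largest fall among those called in all 4 LPS comparisons, and the 3 largest changes among the lists in every other comparison, and the 3 most similar genes of each member. Members, lists and the subtraction were chosen with earlier results of these data known. Alternatives were DESeq2 1.42.0, its size factors, library size alone, no filter, the replicate number as a block, only the libraries compared, the stricter of the study's thresholds (fold change above 2 with an unadjusted p, where it also used 1.5 for some comparisons), each library left out, and a share of the other libraries subtracted from the noTC steady state libraries.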

Additional observations from a re-analysis of the deposited data

Results flagged for a closer look

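These results are given because a test of the difference between 2 groups passed the adjusted threshold in edgeR's fit. Values are differences of log2 fold changes. Their causes were not tested.

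The LPS response was smaller on noTC than on TC dishes in GM cells for Tnf (-1.61), Tnfsf10 (-1.64), Tnfsf15 (-1.85) and Tnfaip3 (-0.66), and 0 of these calls held after the share of other libraries was subtracted. The call of Tnfsf10 was also lost without GM-TC replicate 1 (-1.691) or replicate 2 (-1.563), GM-noTC replicate 2 (-1.373), GM-TC-LPS replicate 2 (-1.505) or GM-noTC-LPS replicate 1 (-1.523). In M cells the noTC minus TC differences were -1.13 for Tnf, -1.05 for Tnfsf15, -0.39 for Tnfrsf1a, -0.55 for Traf1 and -0.42 for Tnfaip3. After the subtraction Tnfsf15 was called in the other direction (1.52, adjusted p = 0.0151), Tnfaip3 was not called (-0.262, adjusted p = 0.0608), and Tnfsf10 was called (0.61, adjusted p = 0.0303). Fas differed the other way (0.49), a call lost without M-TC replicate 2 (0.435), M-noTC replicate 1 (0.375) or M-TC-LPS replicate 1 (0.423).

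The LPS response differed between GM and M cells on TC dishes by 0.56 for Tnf, 1.45 for Tnfsf10, 0.42 for Tnfsf12 and 3.27 for Tnfsf15, all larger or less negative in GM cells. It was smaller in GM cells for Tnfrsf1a (-0.84), Tnfrsf1b (-1.16), Fas (-1.39), Traf1 (-0.69) and Tnfaip3 (-0.38). The call of Tnfsf12 was lost without M-TC-LPS replicate 2 (0.305). On noTC dishes the GM minus M difference was 2.47 for Tnfsf15, and it was below 0 for Tnfsf10 (-0.62), Tnfrsf1a (-0.62), Tnfrsf1b (-1.0), Fas (-1.60), Traf1 (-0.34) and Tnfaip3 (-0.62). Tnfsf10 there lost its call without GM-noTC replicate 2 (-0.354), GM-noTC-LPS replicate 1 (-0.505), M-noTC replicate 1 (-0.590), M-noTC replicate 2 (-0.629) or M-noTC-LPS replicate 2 (-0.559), with library-size scaling (-0.401, adjusted p = 0.158), and after the subtraction, which turned its sign (0.371, adjusted p = 0.381). Tnf, not called on noTC dishes as deposited, was called with library-size scaling (0.300, adjusted p = 0.0126) and after the subtraction (1.039, adjusted p = 2.2e-05).

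The steady state difference between dishes was larger in GM than in M cells for Tnf (0.75), Tnfsf10 (1.98) and Tnfaip3 (0.46). After the subtraction Tnf (-0.211, adjusted p = 0.597) and Tnfsf10 (0.988, adjusted p = 0.22) were not called, and Traf1 was (-0.526, adjusted p = 0.0319). For Tnfrsf1b the GM minus M difference was 0.31 at steady state and 0.47 upon LPS challenge, the dish difference being negative in M cells and near 0 in GM cells.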

How the results depend on the processing

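Scaling by library size alone moved 0 of 30 counts of called genes by over 1.5 times. Gains and losses can cancel within a count. For single results of the 10 genes, that scaling ended 7 calls with the direction kept, added 10 and left 116 as they were. It reversed 1 direction, that of Tnfsf12 for GM against M on TC dishes, whose call was lost as well (-0.067, adjusted p = 0.444). A fold change above 2 with an unadjusted p, the stricter rule of the study, gave fewer calls of the 10 genes: for noTC against TC 3 in GM and 1 in M cells at steady state and 0 in M cells with LPS, for GM against M 3 and 2 at steady state (TC, noTC) and 4 and 3 with LPS, for dish by LPS 2 in M cells, for growth factor by LPS 4 (TC) and 3 (noTC), and for dish by growth factor 1 at steady state and 0 with LPS. Of the 63 other pathway genes it called 30, 29 and 36 for LPS in GM-TC, GM-noTC and M-noTC, 2 (GM) and 3 (M) between dishes at steady state, 0 and 4 with LPS, and 22, 21, 31 and 25 for GM against M. The share of all genes passing this stricter rule was not computed, so its counts show only how the calls depend on the rule. Dish by growth factor with LPS had 1 of the 10 genes called, and 4 with DESeq2, 4 with its size factors, 3 without the filter and 4 with only the libraries compared. Fitted on those libraries alone, other pathway genes between dishes in GM cells were 3 at steady state and 5 with LPS.

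Leaving out a library gave 3 to 5 of the 10 genes for the dishes in GM cells at steady state, and 3 to 11 (GM), 9 to 10 (M) and 1 to 4 (GM with LPS) of the other pathway genes. Tnfsf13b in M-noTC with LPS ranged from -0.14 to 0.10, and Tnf in growth factor by LPS on noTC dishes from -0.049 to 0.259.

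Subtraction left 2 called genes between dishes in GM cells and 0 for dish by LPS. Shares of all genes called were computed only for the main fit of all 16 libraries. Counts under the other settings therefore show only how the calls depend on the setting. It turned the direction of Tnfsf15 between dishes (-0.475 in GM, -1.201 in M) and in dish by LPS (0.586 and 1.517), of Tnfaip3 in M cells (-0.004), of Tnfsf10 in growth factor by LPS on noTC dishes (0.371) and of Tnf in dish by growth factor at steady state (-0.211). Library size turned Tnfsf12 for GM against M on TC dishes (-0.067). The cause was not tested.

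Same-numbered libraries did not deviate together (correlations -0.0636 to 0.02), so the numbers were not taken as pairs. With the replicate block, dish by growth factor with LPS had 2 of the 10 genes called, Tnf being the added one (0.271), and Tnfsf10 was called between dishes in M cells (-0.290 at steady state, 0.158 with LPS) and in dish by LPS (0.448). It changed no other call of the 10 genes. Low counts limit Tnfsf13b most.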
